A study of Rattus norvegicus with 26 samples.

Results

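The livers of rats that had gone through a 10-day progressive feed restriction were compared with the livers of rats that ate freely. The comparison used the 10 day 10 liver arrays of the series' 26, chosen by their labels: 5 of restricted and 5 of control rats. All animals were inbred male Long-Evans (Turku/AB) rats, 11 to 15 weeks old at the start, housed singly under 12 h of light and 12 h of dark with lights on at 7, and on day 0 each was given 4 mL/kg of corn oil. Control rats kept free access to powdered feed. Restricted rats had unlimited feed on day 0 and then single daily portions of 16 g on day 1, then 14, 11, 8 and 6 g, 4 g on both of the next days, and finally 2 g and 1 g on day 9, and every portion was offered in 1 piece in the light phase. The clock time of death is not in the labels. After decapitation small slices of liver were snap-frozen, and total RNA from each rat was hybridised to 1 Affymetrix whole-genome rat array, which reads each transcript with a set of short probes (a probe set). The remaining arrays hold liver and inguinal fat from a 4-day restriction, and of these only the 8 liver arrays are used below, once.

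A liver without incoming sugar stops turning glucose into fat, burns fatty acids, and makes glucose and ketone bodies for the rest of the body. The carbon for that glucose comes largely from amino acids, whose nitrogen leaves as urea. The liver also makes most plasma proteins, which pass through the endoplasmic reticulum and Golgi on their way out, and it holds a daily clock that feeding time can set.

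Values are the deposited log2 intensities, and every difference is the mean of the restricted rats minus the mean of the control rats on that log2 scale, with its standard error (SE) and n = 5 and 5 throughout. "Rose" and "fell" are used of genes for which limma's two-sided moderated test, adjusted by Benjamini-Hochberg over all 31042 probe sets, gave an adjusted p below 0.05. A gene is shown by its brightest probe set on these 10 arrays. Array medians lay between 3.23 and 3.32, so a group mean near or below that level is close to background and the size of the difference is then a lower bound. The number of arrays limits the precision, and no count of molecules stands behind a value. Of 12 measured hepatocyte markers 3 rose and 3 fell, and albumin (Alb) read 16.15 to 16.18 in controls and 16.15 to 16.18 in restricted rats, so the labelled tissue was plainly present in both groups.

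In all 3471 probe sets, 11.2% of those tested, differed between the groups: 1806 were higher (5.82%) and 1665 lower (5.36%) in restricted rats, 341 and 405 of them by 2-fold or more. Counted as genes, 1236 of 14217 rose (8.69%) and 1157 fell (8.14%), and the median difference over all genes was 0.00. Among the 7238 genes with a mean of at least 5, 16.5% rose and 15.3% fell, which is the background for the lists below, whose members are mostly expressed genes. A count near these shares is read as no result about its list. The lists were chosen with earlier results of these data known, so a share above the background is a description and not a test. The 5 restricted and 5 control values did not overlap in 2385 genes (16.8%). Correlations between arrays ran from 0.993 to 0.998 within groups and from 0.983 to 0.993 between them. The arrays were scanned on 2 days, the first with controls 1 to 3 and restricted rats 1 and 2, the second with controls 4 and 5 and restricted rats 3 to 5. All 3471 called probe sets had the same sign on both days. They were called on these same arrays, so that agreement is largely set by the choice and nothing is concluded from it. Their median size was 0.477 on the first day and 0.594 on the second, and 68.6% were larger on the second. List medians are given for both days below.

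Controls 1 and 4 stood apart from the other controls in iron-related genes, as described further on, and each count was also taken without them, an alternative chosen after seeing the data that leaves 3 controls. It gave 1098 higher and 1131 lower probe sets. Among the lists below it left 12 lower interferon-stimulated genes, 6 lower class II genes, 12 lower Kupffer cell markers, 11 lower genes each of translocation and folding, 10 lower coat genes, 13 higher ribosomal proteins, 9 lower genes of fatty acid synthesis and 7 higher clock output genes. Counts printed below that shrank by more than 1.5 times were the rises in glycolysis (2), glucose synthesis (3), glycogen metabolism (1), sterol synthesis and uptake (0), mitochondrial fatty acid oxidation (7), amino acid breakdown (11), amino acid carriers (3), autophagy (1), ATF4 targets (0), clock repressors (3) and stellate cell markers (1). The falls that shrank as much were those in ATF4 targets (1), insulin and growth factor signalling (0), nuclear receptors (0), bile acid synthesis (1), iron and haem metabolism (1), stellate cell markers (2), tRNA synthetases (5), acute phase proteins (5), coagulation and complement (6), sex-biased genes (3), cytochromes P450 (1), antioxidant genes (3), glucocorticoid-responsive genes (1), periportal genes (1), pericentral genes (1) and hepatocyte markers (1). Falls of lysosomal genes also shrank that far, to 3. Of 186 called genes named in the text 37 lost their call, at adjusted p from 0.0501 to 0.188: Atf4, Cry2, Cyp2c13, Edem1, Got1, Gpt, Gys2, Hadhb, Hfe, Hjv, Hsd17b7, Hspa1a, Hyou1, Ifi27, Ifit2, Ifit3, Inhbc, Inhbe, Irs1, Irs2, Klf9, Mvk, Nfe2l2, Nr1d2, Nrip1, Pck1, Pnpla2, Sec61g, Sesn2, Slc13a4, Slc16a10, Slc16a7, Slc38a2, Slc40a1, Spcs1, Srebf1 and Vim.

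The largest changes went to the edge of what the arrays can read. Scd, the desaturase that makes oleate from stearate, read 13.75, 13.79, 13.39, 12.70 and 12.14 in controls 1 to 5 and 6.76, 4.23, 7.50, 4.84 and 5.67 in restricted rats 1 to 5. Every restricted rat lay far below every control, a fall of 7.35 (SE 0.64, adjusted p = 0.000182) or 163-fold. Inhba, which encodes the beta A subunit of activin, read 9.02, 9.25, 8.85, 9.28 and 9.57 in controls 1 to 5 and 5.13, 4.60, 3.35, 2.20 and 2.21 in restricted rats 1 to 5. The fall was 5.69 (SE 0.58, adjusted p = 0.000354), and restricted rats 4 and 5 were at background. The uptake carriers Slc22a8, for organic anions, and Slc6a6, for taurine, fell by 5.06 (SE 0.32) and 4.42 (SE 0.49). Poteml2 fell from 7.17 to 8.52 in controls to background in all 5 restricted rats, at 2.14 to 2.16.

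At the other end, Cyp17a1, the steroid 17-alpha-hydroxylase, was at background in all controls, at 2.30 to 2.37, and read 8.36, 8.79, 8.84, 7.90 and 6.06 in restricted rats 1 to 5. That is a rise of 5.67 (SE 0.48, adjusted p = 0.00016), a lower bound. Por, which passes electrons to the microsomal cytochromes P450, read 9.32, 9.36, 9.42, 9.45 and 9.25 in controls 1 to 5 and 12.11, 12.79, 13.16, 13.20 and 13.54 in restricted rats 1 to 5. No restricted rat came within 2 log2 units of a control, and the rise was 3.60 (SE 0.23, adjusted p = 4.51e-05), or 12.1-fold. The prolactin receptor Prlr rose by 4.55 (SE 0.84) with a wide spread among controls, 3.28, 6.52, 7.44, 3.28 and 3.97 against 8.74 to 10.01 in restricted rats. Changes that were smaller but more even across rats included Mcrip2 (2.11, SE 0.08), the deubiquitinase Usp40 (1.28, SE 0.05) and, downward, Cmtm6 (-2.97, SE 0.13), a membrane protein that stabilises PD-L1 in human cells.

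Most genes of fat synthesis fell. Of 19 measured genes of fatty acid synthesis and desaturation 13 fell and 1 rose (median -1.02; -1.22 and -0.86 on the first and second scan day). Acly, which makes cytosolic acetyl-CoA, fell by 2.06 (SE 0.30), the fatty acid synthase Fasn by 2.77 (SE 0.43) and the elongase Elovl5 by 2.21 (SE 0.33). The transcription factor Srebf1, which drives these enzymes, fell by 1.09 (SE 0.24). The 1 rise, of the elongase Elovl2 (0.85, SE 0.20), was lost without control 2, restricted 1 or restricted 3. In glycolysis and glucose phosphorylation, which feed this pathway, 4 of 12 genes rose and 3 fell (median 0.09), and 2 rose without control 1, control 3, restricted 3 or restricted 4. Pfkfb1, which sets the level of a glycolytic activator, and the glucose carrier Slc2a2 rose by 0.96 (SE 0.13) and 0.55 (SE 0.10). The glucokinase regulator Gckr and the liver pyruvate kinase Pklr fell by 2.85 (SE 0.20) and 2.07 (SE 0.20). Gckr read 11.51, 11.42, 11.42, 11.50 and 11.42 in controls 1 to 5 and 9.36, 8.53, 8.52, 8.03 and 8.57 in restricted rats 1 to 5, so the controls were within 0.1 of each other and every restricted rat was at least 2 units below them. In sterol synthesis and uptake 7 of 19 genes fell and 2, Mvk and Hsd17b7, rose (median -0.48; -0.46 and -0.47 by scan day). Leaving out any single array other than control 2 reduced those rises to 1 or 0. Insig2, which holds the sterol sensor in the endoplasmic reticulum, fell by 1.52 (SE 0.14), and Dhcr7, the last enzyme of cholesterol synthesis, by 1.13 (SE 0.17).

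Fatty acid oxidation in mitochondria moved up by smaller steps. Of 19 genes 13 rose and 0 fell (median 0.43; 0.56 and 0.28 by scan day), 8 rose without control 1 or without restricted 2, and 1 fell without restricted 1. Cpt1a, the entry step, read 10.87, 11.55, 12.59, 12.20 and 11.57 in controls 1 to 5 and 13.06 to 13.17 in restricted rats. The controls were spread over 1.7 units while the 5 restricted rats were nearly identical, and the rise was 1.34 (SE 0.28, adjusted p = 0.0132). Cpt2, on the inner membrane, rose by 1.01 (SE 0.05) with little spread in either group. The very long chain dehydrogenase Acadvl and Hadhb, the thiolase subunit of the trifunctional enzyme, rose by 0.58 (SE 0.05) and 0.60 (SE 0.12). Pnpla2, the lipase that starts the breakdown of stored triglyceride, rose by 1.71 (SE 0.35). The citric acid cycle rose in 8 of 15 genes, for example the succinyl-CoA ligase subunit Suclg1 (0.58, SE 0.06), while citrate synthase, Cs, fell by 0.44 (SE 0.05). Of 7 measured genes of ketone body formation and export 3 rose and 1 fell, and 2 fell without restricted 1 or restricted 5. The dehydrogenase Bdh2 and the thiolase Acat1 rose by 2.68 (SE 0.23) and 0.40 (SE 0.05). Among the carriers Slc16a1 fell by 1.54 (SE 0.19) and Slc16a7 rose by 0.37 (SE 0.09), a call lost without any 1 of 6 arrays.

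Enzymes that turn amino acids into glucose rose. Of 12 measured genes of glucose synthesis 7 rose and 1 fell (median 0.39; 0.22 and 0.48 by scan day). Sds, which deaminates serine to pyruvate, read 8.85, 8.71, 9.27, 8.94 and 8.47 in controls 1 to 5 and 11.21, 12.88, 13.27, 13.95 and 14.41 in restricted rats 1 to 5. The controls lay within 1 unit of each other and the restricted rats over more than 3 units, all above the controls, a rise of 4.29 (SE 0.53, adjusted p = 0.000954). The coactivator Ppargc1a rose by 3.78 (SE 0.55), a lower bound. Pck1, the rate-controlling enzyme of the pathway, was already bright in controls at 14.12 to 14.27 and reached 14.27 to 14.55, a rise of 0.26 (SE 0.05); at such levels an array can compress differences. The 1 fall was Gk, glycerol kinase, through which glycerol enters the pathway (-1.84, SE 0.18). In glycogen metabolism 2 of 11 genes rose and 2 fell (median -0.04). These counts are near the background shares of 16.5% and 15.3% and are read as no result about the list. Pygl, the liver phosphorylase that breaks glycogen down, and Gbe1, the branching enzyme that helps build it, fell by 1.38 (SE 0.07) and 0.97 (SE 0.09). The glycogen-binding Stbd1 rose by 0.80 (SE 0.12) and the liver glycogen synthase Gys2 by 0.48 (SE 0.12), the latter a call lost without any 1 of 7 arrays.

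Amino acid breakdown rose in 19 of 35 measured genes and fell in 3 (median 0.35; 0.19 and 0.57 by scan day). Besides Sds, the aspartate and alanine aminotransferases Got1 and Gpt rose by 2.18 (SE 0.44) and 0.96 (SE 0.20), the tyrosine aminotransferase Tat by 1.89 (SE 0.31) and the proline oxidase Prodh by 1.03 (SE 0.22). The 3 that fell were Kynu of the tryptophan pathway (-1.99, SE 0.13), and Bhmt (-1.41, SE 0.19) and Cth (-0.56, SE 0.06), which use homocysteine and cystathionine. Mat1a, which makes the methyl donor S-adenosylmethionine from methionine, rose by 0.74 (SE 0.06). In the urea cycle 4 of 8 genes rose and 0 fell. Asl, which releases arginine, rose by 1.98 (SE 0.22), Arg1, which frees the urea, by 0.49 (SE 0.07) and Cps1, the entry step, by 0.36 (SE 0.05). Serine hydroxymethyltransferase split by compartment: the cytosolic Shmt1 rose by 0.87 (SE 0.10) and the mitochondrial Shmt2 fell by 0.85 (SE 0.07), without overlap of the groups in either.

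Amino acid carriers divided in the same liver. Of 16 measured genes 6 rose and 2 fell. Slc38a2, the sodium-coupled carrier of small neutral amino acids, rose by 2.35 (SE 0.46), and Slc25a22, the mitochondrial glutamate carrier, by 1.03 (SE 0.18). Slc1a4, which exchanges serine and alanine, fell by 2.51 (SE 0.18) to background. Genes tied to the stress factor ATF4, which acts when amino acids run short, were measured in 16 cases. In 7 of these the mean was below 5, so a change there may be out of reach. Of the 16 genes 1 passed the test upward, Sesn2 (0.77), and 2 downward, Atf4 itself (-0.30) and Atf5 (-1.41, SE 0.17). Over all genes 8.69% rose and 8.14% fell, so these counts are read as no result about the list. The calls of Sesn2 and Atf4 were lost on leaving out single arrays, 3 and 8 of the 10 respectively, and that of Atf5 was not. Asns, the asparagine synthetase, was at background in both groups, at 2.36 to 2.42 and 2.38 to 2.41, and Trib3 differed by 0.46 (SE 0.36, adjusted p = 0.698).

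Ribosomal protein genes and genes of the protein export route changed in opposite directions. Of 18 measured cytosolic ribosomal proteins 16 were higher in restricted rats and 0 lower, by small amounts with a median of 0.22 (0.19 and 0.23 by scan day). Rpl5 read 13.34, 13.49, 13.40, 13.48 and 13.50 in controls 1 to 5 and 13.85, 13.77, 13.83, 13.82 and 13.91 in restricted rats 1 to 5, a rise of 0.39 (SE 0.04, adjusted p = 0.000244). No restricted rat fell within the control range. Rpl3 and Rpsa rose by 0.32 (SE 0.03) and 0.32 (SE 0.04). The cytosolic tRNA synthetases, which load amino acids onto tRNA, leaned the other way: 8 of 19 fell and 1 rose (median -0.28; -0.21 and -0.34 by scan day), and 5 fell without control 2 or without restricted 3. The alanine enzyme Aars1 fell by 0.80 (SE 0.06), the isoleucine enzyme Iars1 by 0.57 (SE 0.09), and the glutamine enzyme Qars1 rose by 0.23 (SE 0.04).

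At the endoplasmic reticulum the falls covered entry, folding and exit. Of 25 genes that bring new proteins into the organelle 15 fell and 0 rose (median -0.37; -0.26 and -0.53 by scan day). They included both subunits of the signal recognition particle receptor, Srpra (-0.73, SE 0.11) and Srprb (-0.76, SE 0.10), the channel subunits Sec61a1 (-0.50), Sec61b (-0.53) and Sec61g (-0.35), all 4 members of the translocon-associated complex Ssr1 to Ssr4 (-0.35 to -0.55) and the 3 signal peptidase genes Spcs1 to Spcs3 (-0.38 to -0.47). Of these only the call of Sec61g was lost on leaving out an array. Srprb read 10.60, 10.60, 10.73, 10.89 and 10.97 in controls 1 to 5 and 10.08, 10.14, 10.02, 10.04 and 9.72 in restricted rats 1 to 5, and the groups did not overlap. Sec62, which serves transport after translation, differed by 0.04 (SE 0.03, adjusted p = 0.536), whereas its partner Sec63 fell by 0.56 (SE 0.04).

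Folding enzymes in the organelle fell in 14 of 20 cases with 0 rising (median -0.44; -0.35 and -0.57 by scan day). Hspa5, the main chaperone, fell by 0.78 (SE 0.09), Hyou1, its exchange factor, by 1.44 (SE 0.29) and the disulfide isomerase Pdia6 by 0.75 (SE 0.10). Sdf2l1, Creld2 and Manf, small stress-induced proteins of the same compartment, fell by 1.39, 1.29 and 0.90. The transcription factor Xbp1, which drives many of these genes, differed by -0.05 (SE 0.17, adjusted p = 1.00) as read by this probe set, which does not resolve its splicing. Coats and cargo receptors of the export vesicles fell in 13 of 23 cases with 0 rising (median -0.29; -0.16 and -0.39 by scan day), and 1 rose without restricted 5. Sec23b of the outbound coat fell by 0.99 (SE 0.16) and the cargo receptor Surf4, which carries lipoproteins and other secreted proteins, by 0.78 (SE 0.07).

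**Figure D1:**
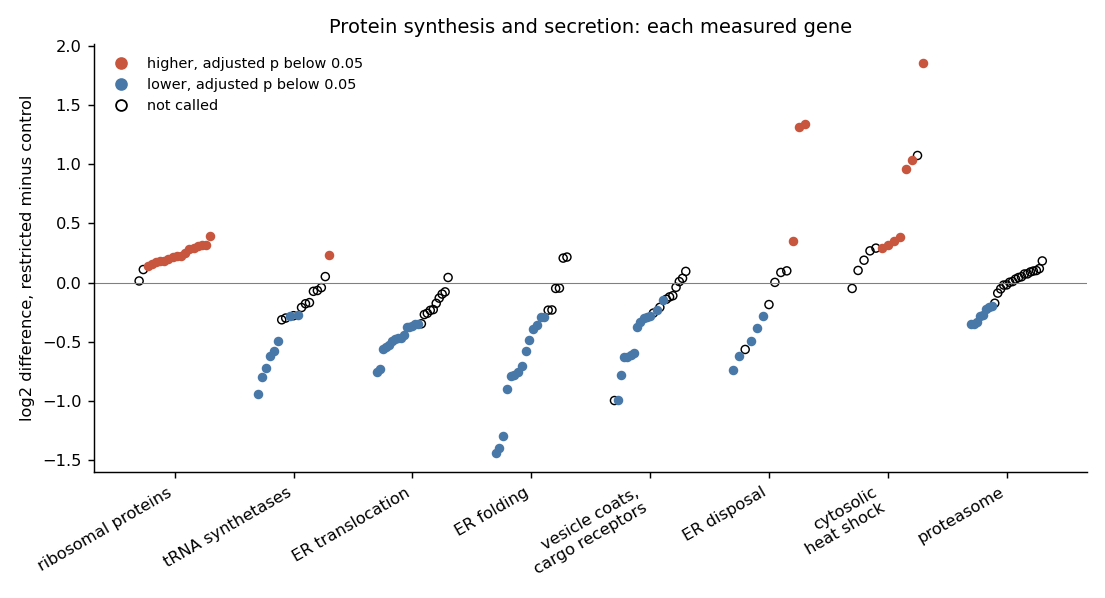
Each point is 1 measured gene of a list, and the vertical axis is the log2 difference of restricted minus control rats (means of 5 arrays each); filled points passed an adjusted p of 0.05 and open points did not. The 16 called ribosomal proteins lie above 0, the called genes of translocation, folding and vesicle coats lie below 0, and the list of disposal from the endoplasmic reticulum (ER) has called genes on both sides. The column labelled cytosolic heat shock also holds mitochondrial chaperones.

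Disposal of misfolded protein had calls in both directions. Of 13 genes 3 rose and 5 fell. Edem1, which delivers misfolded glycoproteins for disposal, rose by 1.34 (SE 0.26), and Herpud1, an organiser of the disposal complex, by 1.31 (SE 0.18). The ubiquitin ligase of that complex, Syvn1, fell by 0.62 (SE 0.10). Of 13 measured heat shock genes outside the endoplasmic reticulum 7 rose and 0 fell (median 0.32, with 0.36 and 0.34 by scan day). Most of the 13 are cytosolic, but the list also holds mitochondrial chaperones, which were among the rises. Hspa1a, the inducible HSP70, read 3.77, 3.62, 3.63, 3.74 and 3.74 in controls 1 to 5 and 5.19, 5.07, 4.39, 6.56 and 6.53 in restricted rats 1 to 5, a rise of 1.85 (SE 0.40) from near background. Proteasome subunits had a median of -0.02 with 8 of 25 lower and 0 higher, and 1 rose without control 5. In autophagy 3 of 21 genes rose, among them the mitochondrial receptor Bnip3 (1.35, SE 0.22), and the cargo receptor Sqstm1 fell by 0.71 (SE 0.08). Of genes with a mean of at least 5, 16.5% rose and 15.3% fell, so the autophagy counts are read as no result about the list.

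Transcripts of the secreted plasma proteins themselves divided. Of 27 measured genes of coagulation and complement 6 rose and 10 fell (median -0.06), and of 20 acute phase proteins 2 rose and 9 fell (median -0.12). The larger falls were C6 (-1.61, SE 0.17), a part of the membrane attack complex, the lectin Mbl2 (-0.90, SE 0.07), the protease C1s (-0.87, SE 0.05) and the acute phase protein Orm1 (-0.70, SE 0.10). Coagulation factor F5 rose by 0.64 (SE 0.07) and the lipopolysaccharide-binding protein Lbp by 0.66 (SE 0.10). Transcripts as bright as Alb, whose groups differed by 0.00 (SE 0.01), sit near the top of the scale, where the arrays may not resolve a change.

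Interferon-stimulated genes fell in 17 of 23 measured cases and rose in 0, with a median of -1.29 (-1.18 and -1.03 by scan day). These genes are switched on by interferons through STAT and IRF factors and act against viruses or in antigen processing. Irf7, a master regulator of the response, read 8.16, 7.88, 7.40, 7.28 and 7.76 in controls 1 to 5 and 5.55, 5.17, 5.41, 4.96 and 4.19 in restricted rats 1 to 5. Every restricted rat was below every control, and the fall was 2.64 (SE 0.27, adjusted p = 0.00037). The ISG15 protease Usp18 fell by 2.74 (SE 0.37), the antiviral Rsad2 by 2.70 (SE 0.22), the GTPase Gbp2 by 2.32 (SE 0.19), Isg15 by 1.86 (SE 0.35) and Irf1 by 1.47 (SE 0.25). Without control 1 a single member rose, and the calls of Ifit2, Ifit3 and Ifi27 were the only falls lost on leaving out an array.

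The interferon list included the inducible proteasome. Its subunits Psmb8 and Psmb9, which trim peptides for presentation, fell by 1.29 (SE 0.13) and 2.45 (SE 0.17), and the peptide transporter Tap1 by 1.52 (SE 0.24) to near background. Psmb9 read 11.20, 10.98, 10.81, 10.88 and 10.63 in controls 1 to 5 and 8.90, 8.68, 8.28, 8.41 and 7.98 in restricted rats 1 to 5, with the groups about 1.7 units apart at their closest. Psmb5, the standard catalytic subunit of the proteasome list, differed by 0.03 (SE 0.05, adjusted p = 1.00). B2m, the light chain of class I molecules, fell by 0.37 (SE 0.05).

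Class II antigen presentation, a task of macrophages, dendritic cells and B cells, fell in 7 of 11 cases with 0 rising (median -1.15; -1.26 and -0.77 by scan day). The rat class II chains RT1-Db1, RT1-Ba, RT1-Da and RT1-Bb fell by 1.71, 1.32, 1.22 and 1.16 (SE 0.12 to 0.18), and the invariant chain Cd74 by 1.18 (SE 0.10). Cd74 read 11.93 to 12.39 in controls and 10.79 to 11.15 in restricted rats. Ciita, the factor that switches class II genes on, was close to background in both groups, at 3.53 to 3.57 and 3.52 to 3.58. These chains are encoded by similar genes, and a probe set may read more than 1 of them.

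Markers of Kupffer cells, the macrophages of the liver, fell in 12 of 15 cases with 0 rising (median -1.06; -1.28 and -0.96 by scan day). Clec4f, a lectin confined to Kupffer cells in rodents, read 11.78, 12.03, 11.52, 11.77 and 11.74 in controls 1 to 5 and 10.38, 10.61, 10.73, 10.91 and 10.59 in restricted rats 1 to 5, and the groups did not overlap. It fell by 1.12 (SE 0.11, adjusted p = 0.000328). Adgre1, the classical rodent macrophage antigen, fell by 1.67 (SE 0.14), the secreted scavenger protein Cd5l by 1.56 (SE 0.14), Aif1 by 1.42 (SE 0.09) and the growth factor receptor Csf1r by 1.10 (SE 0.12). Not every macrophage gene was lower: Cd163 differed by -0.31 (SE 0.17, adjusted p = 0.441), Mrc1 by -0.07 (SE 0.10) and Cd14, which hepatocytes also make, by 0.20 (SE 0.09), and none of the 3 passed the test. In pieces of whole liver, fewer cells of a type and less RNA per cell cannot be told apart.

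The mean over the 15 Kupffer markers, set to 0 in the control mean, lay between -0.20 and 0.18 in controls and between -1.14 and -0.68 in restricted rats. The interferon mean lay between -0.19 and 0.27 in controls and between -1.48 and -0.94 in restricted rats. The part of the macrophage markers in the lower interferon, class II and lysosomal genes was not tested. Lysosomal genes divided: of 17 measured, 3 rose and 6 fell (median -0.01). The falls numbered 3 to 5 when a single array was left out. Among them the cathepsins Ctss and Ctsc fell by 1.00 (SE 0.16) and 0.86 (SE 0.08). Within the restricted group the lists did not rank the rats alike: restricted 4 had the highest Kupffer and class II means and the second lowest interferon mean. Markers of neutrophils and monocytes (8 genes), lymphocytes (13) and endothelial cells (11) had 0 members called by limma, and 1, 2 and 2 had an unadjusted p below 0.05. All 8 neutrophil and monocyte markers and 11 of the lymphocyte markers had means below 5, so a change there may be out of reach, and 1 endothelial marker passed without control 2, restricted 3 or restricted 5.

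**Figure D2:**
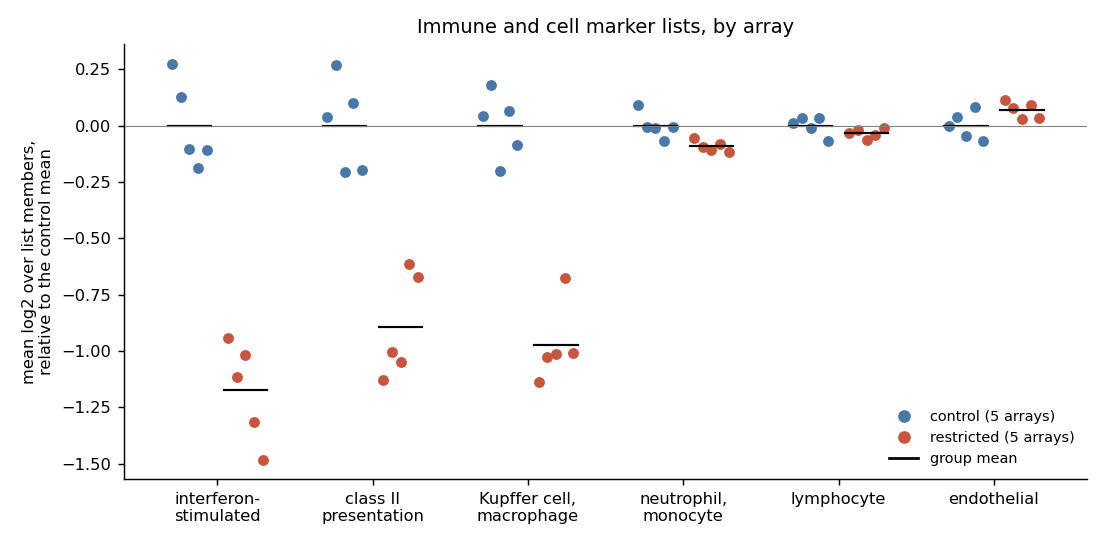
Each point is 1 array, and the vertical axis is the mean log2 value over the measured members of a list, set to 0 at the mean of the 5 controls; bars are group means. The interferon, class II and Kupffer lists separate all 5 restricted rats from all 5 controls, while the neutrophil, lymphocyte and endothelial lists stay within 0.12 of the control mean.

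Genes of the liver's circadian clock read at different levels in the 2 groups at the time of sampling. Each rat was sampled once, at a clock time the labels do not give. A different level over the whole day and a shift in timing therefore cannot be told apart. In that clock Bmal1 with Clock or Npas2 switches on the Per and Cry genes, whose proteins shut their own activators down, and NR1D and ROR factors pull Bmal1 in opposite directions. Of 5 measured activator genes 3 fell and 0 rose. Npas2 read 7.72, 7.07, 7.45, 7.56 and 7.75 in controls 1 to 5 and 2.43, 2.40, 2.30, 2.41 and 2.42 in restricted rats 1 to 5. All restricted rats were at background, so the fall of 5.12 (SE 0.12, adjusted p = 2.22e-07) is a lower bound. Bmal1 read 7.95, 7.56, 6.86, 6.99 and 7.83 in controls 1 to 5 and 5.37, 5.39, 5.34, 4.44 and 5.28 in restricted rats 1 to 5, without overlap, and fell by 2.27 (SE 0.27), and Clock fell by 0.90 (SE 0.14).

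Repressors and output genes were higher. Per1, Per2 and Per3 rose by 2.90 (SE 0.36), 3.48 (SE 0.30) and 1.91 (SE 0.22). Per2 read 6.67, 5.91, 5.51, 5.49 and 6.27 in controls 1 to 5 and 9.26, 9.71, 10.16, 9.23 and 8.86 in restricted rats 1 to 5, and even the lowest restricted rat was more than 2 units above the highest control. Of 9 measured repressor genes 5 rose, and 3 rose without restricted 2, 3 or 5 or without control 5, since the calls of Cry2 (0.51) and Nr1d2 (1.13) depended on single arrays. Cry1 differed by 0.73 (SE 0.25, adjusted p = 0.122) and Nr1d1 by -0.89 (SE 0.50, adjusted p = 0.425). For Cry1 all 5 restricted rats lay above the 5 controls, and for Nr1d1 the groups overlapped.

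Of 9 output genes 7 rose and 0 fell (median 2.31; 2.00 and 2.43 by scan day). Noct, a phosphatase of NADPH with a strong daily rhythm, was at background in controls (1.92 to 3.05) and read 6.33, 6.56, 9.75, 10.08 and 9.44 in restricted rats 1 to 5. The first 2 rats were more than 2.8 units below the other 3, the same split as the scan days. Dbp, Tef and Hlf, the PAR bZIP factors that bind D-boxes, rose by 4.27 (SE 0.60), 2.64 (SE 0.32) and 1.07 (SE 0.21). Usp2 rose by 3.40 (SE 0.23) on the brighter probe set and by 6.71 (SE 0.22) on the other, which was at background in controls. Nfil3, which competes with them at D-boxes, differed by 0.13 (SE 0.26, adjusted p = 1.00).

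**Figure D3:**
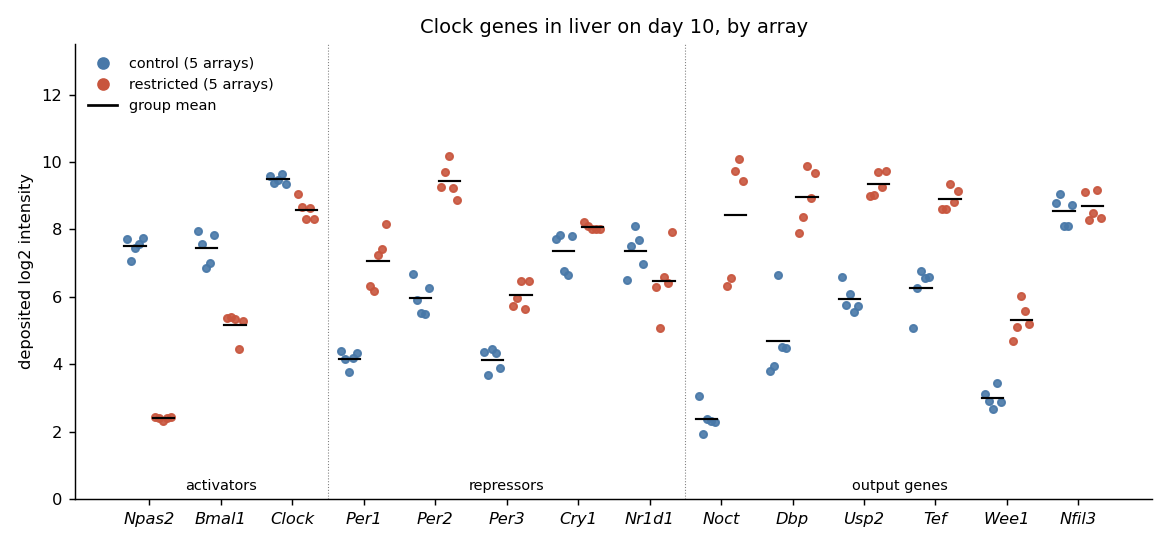
Deposited log2 intensity of 14 clock genes on each of the 10 arrays (points; blue, control; red, restricted; bars, group means), grouped as activators, repressors and output genes. Npas2 and Bmal1 are lower and the Per genes, Noct, Dbp, Usp2, Tef and Wee1 higher in every restricted rat, while Nr1d1 and Nfil3 overlap.

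The promoter windows of 3 of these genes are printed because each holds 1 of the clock's known DNA elements, and because Bmal1 moved against Per2 and Tef. They are RefSeq sequences of build GRCr8, from 250 bases before to 50 after the gene start, 5′ to 3′ on the gene's strand, with the element in capitals: a D-box (TTATGTAA or TTACGTAA) starting 192 bases before the start of Per2 (chr9:99496944-99497243, minus strand), an E-box (CACGTG) 198 bases before that of Tef (chr7:115206577-115206876, plus strand) and a ROR element (NTAGGTCA or AAAGGTCA) 17 bases before that of Bmal1 (chr1:176766078-176766377, plus strand).
Per2: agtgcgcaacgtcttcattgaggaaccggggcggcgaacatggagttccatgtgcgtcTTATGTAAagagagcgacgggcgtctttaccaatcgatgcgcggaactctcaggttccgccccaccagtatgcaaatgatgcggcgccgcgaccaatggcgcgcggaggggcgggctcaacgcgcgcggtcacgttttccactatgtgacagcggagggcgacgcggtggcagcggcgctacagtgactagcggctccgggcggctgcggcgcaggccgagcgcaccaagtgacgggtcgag
Tef: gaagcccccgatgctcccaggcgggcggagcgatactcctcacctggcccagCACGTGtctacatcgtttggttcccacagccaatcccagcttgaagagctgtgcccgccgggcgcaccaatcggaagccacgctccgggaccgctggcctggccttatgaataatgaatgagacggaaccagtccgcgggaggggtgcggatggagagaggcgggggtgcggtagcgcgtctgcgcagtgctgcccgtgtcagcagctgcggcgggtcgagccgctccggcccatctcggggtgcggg
Bmal1: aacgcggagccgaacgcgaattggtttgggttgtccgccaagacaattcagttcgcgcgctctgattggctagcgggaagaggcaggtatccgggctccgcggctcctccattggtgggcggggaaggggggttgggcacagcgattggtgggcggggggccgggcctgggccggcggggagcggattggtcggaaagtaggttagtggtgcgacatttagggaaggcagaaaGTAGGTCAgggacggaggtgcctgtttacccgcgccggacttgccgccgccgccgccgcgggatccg

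Such windows were found for 11700 of the 14217 genes and searched on both strands, with E-box and D-box letters not overlapping each other. Of the 9 higher clock genes with a window 1 held an E-box and 1 a D-box. Over all genes an E-box stood in 11.1% of 1067 higher, 8.13% of 972 lower and 8.79% of 9661 uncalled genes, and in 6.65% of all 27457 promoters. A D-box stood in 0.937%, 0.412% and 0.673% of the higher, lower and uncalled genes, which are 10, 4 and 65 genes. A ROR element stood in 3.75%, 3.50% and 2.65%. Over all 27457 promoters the shares were 1.005% for the D-box and 3.853% for the ROR element, both above those of the higher genes. For the cyclic AMP, amino acid response and sterol elements given next they were 1.912%, 0.743% and 1.129%. The cyclic AMP element TGACGTCA stood in 2.91%, 2.67% and 2.87% of the same groups, the amino acid response element TGATGCAA in 0.656%, 1.23% and 0.549%, and the sterol element TCACNCCAC in 1.03%, 1.13% and 1.12%. A match is only these letters in this window, and a window without a match says nothing of the factor.

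Of 21 measured genes of insulin and growth factor signalling 4 rose and 1 fell, and the fall, of Irs1, was lost without control 1, control 5 or restricted 2, 3 or 5, though 2 others were called lower without control 1. Of 14 genes of growth hormone signalling 4 rose and 2 fell. Igfbp1 and Igfbp2, which bind insulin-like growth factors, rose by 3.75 (SE 0.45) and 2.85 (SE 0.26), and Irs2, which relays signals from that receptor family and the insulin receptor, by 1.76 (SE 0.38). The growth hormone receptor Ghr and its messenger Stat5b fell by 1.16 (SE 0.17) and 1.24 (SE 0.11). Rises in the growth hormone list were larger than these 2 falls at their most, reaching 4.75. Igf1 itself differed by -0.21 (SE 0.07, adjusted p = 0.0763), from 13.94 to 14.24 in controls to 13.81 to 14.03. Of its other probe sets 1 passed the test, in a direction not reported here, so no direction is given. Inhbc, another activin subunit made in the liver, fell by 1.66 (SE 0.37). Inhbe read 10.04, 9.73, 10.29, 9.96 and 10.07 in controls 1 to 5 and 8.27, 8.21, 8.03, 7.07 and 4.53 in restricted rats 1 to 5, lower in all 5, but its call was lost without any 1 of 6 arrays. Follistatin, Fst, which binds activins, was at background in both groups.

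Of 17 measured glucocorticoid-responsive genes 7 rose and 2 fell (median 0.26; 0.17 and 0.32 by scan day), and 1 fell without restricted 5. Fkbp5, which tunes the glucocorticoid receptor, read 4.85, 4.89, 4.86, 4.77 and 4.74 in controls 1 to 5 and 5.98, 7.50, 7.01, 7.76 and 8.79 in restricted rats 1 to 5. All restricted rats were higher, restricted 1 least, and the rise was 2.59 (SE 0.43). Tsc22d3 (GILZ) and Klf9 rose by 2.12 (SE 0.22) and 1.54 (SE 0.31), whereas the receptor, Nr3c1, fell by 0.44 (SE 0.10). Hsd11b1, which regenerates active glucocorticoid within the liver, fell by 1.04 (SE 0.16).

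Steroid handling and drug metabolism changed gene by gene. Of 13 steroid-converting enzymes 4 rose and 5 fell. Akr1b7 rose by 4.19 (SE 0.68) and the ketosteroid reductases Akr1c3 and Akr1c1 fell by 4.26 (SE 0.39) and 1.50 (SE 0.18). Among 27 cytochromes P450 and partners 11 rose and 4 fell (median 0.07), the falls being near the background share of 15.3%. Besides Por and Cyp17a1, Alas1, the first step of haem synthesis in the liver, rose by 1.08 (SE 0.24), though control 1 at 12.00 lay within the restricted range of 11.96 to 12.52. Of 23 metabolic nuclear receptors and coregulators 6 rose and 1, Nrip1, fell, a call lost without any 1 of 7 arrays, though 2 others were called lower without restricted 1. The drug sensors Nr1i2 (PXR) and Nr1i3 (CAR) rose by 1.54 (SE 0.14) and 1.09 (SE 0.17), and Nr0b2 (SHP), which curbs bile acid synthesis, by 1.40 (SE 0.29). The bile acid receptor Nr1h4 (FXR) differed by -0.19 (SE 0.18, adjusted p = 0.8). Of 13 genes with known sex bias in rat liver 3 rose and 6 fell, among the latter the male-type Obp3 (-2.40, SE 0.13) and Cyp2c13 (-1.06, SE 0.22).

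Carriers in the cell membrane and toward bile also divided. Of 22 measured genes 5 rose and 5 fell. Abcg5 and Abcg8, the subunits of the sterol exporter, rose by 2.21 (SE 0.45) and 1.21 (SE 0.26), Abcb1a, a drug exporter, by 2.02 (SE 0.23) and Slc22a5, the carnitine carrier, by 1.95 (SE 0.27). The bile salt exporter Abcb11 fell by 0.55 (SE 0.09). Of 26 glutathione transferases and antioxidant genes 5 fell and 0 rose, among them Gstt1 (-0.83, SE 0.13) and the regulator Nfe2l2 (-0.80, SE 0.16). The 5 falls are near the background share of 15.3% and are read as no result about that list. A single member of it rose without control 2, restricted 1 or restricted 3. Genes typical of hepatocytes near the portal vein rose in 8 of 15 cases, against 2 falls (median 0.36), and those of hepatocytes near the central vein rose in 3 of 13 and fell in 3 (median -0.05). Several periportal genes are also enzymes of the amino acid and urea lists above. Of 24 cell division genes 0 were called by limma (0 at an unadjusted p of 0.05), and 22 had means below 5.

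Of 5 measured red cell genes 2 fell and 0 rose, and iron-related genes set 2 controls apart. Hbb, a beta globin, read 13.84, 12.87, 12.58, 13.70 and 12.97 in controls 1 to 5 and 10.55, 10.33, 11.90, 10.31 and 10.11 in restricted rats 1 to 5. The groups did not overlap, controls 1 and 4 were highest, and restricted 3 stood above the other restricted rats. Alas2, which starts haem synthesis in red cell precursors, also had controls 1 and 4 and restricted 3 at the top of their groups: 8.60, 5.87, 6.30, 8.16 and 6.41 in controls 1 to 5 and 3.12, 2.91, 4.41, 2.92 and 2.97 in restricted rats 1 to 5. The falls were 2.55 (SE 0.38) and 3.80 (SE 0.58), the latter a lower bound, and both calls held without controls 1 and 4, an alternative chosen after seeing the data.

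Hamp encodes hepcidin, the liver hormone that blocks the release of iron into blood. It read 3.51, 13.18, 12.17, 3.53 and 11.97 in controls 1 to 5 and 14.14, 14.14, 13.84, 14.00 and 14.33 in restricted rats 1 to 5. Controls 1 and 4 were at background, the other 3 controls bright and all restricted rats brighter still, so the difference of 5.22 (SE 2.06) did not pass the test (adjusted p = 0.183). The transferrin receptor Tfrc, whose transcript rises when a cell lacks iron, was high in the same 2 controls: 11.63, 9.58, 9.34, 11.44 and 10.31 in controls 1 to 5 against 10.33 to 10.62 in restricted rats. Controls 1 and 4 were scanned on different days. Over all genes the pair stood at least 1 unit clear of the other 3 controls in 5 (Alas2, Hamp, Tfrc, Mup5 and Ppp2r1b, named after their values were seen), against 0 to 7 for the other pairs of controls. Of 18 measured genes of iron and haem metabolism 6 rose and 7 fell, the falls numbering 2 to 5 when a single array was left out and 1 without controls 1 and 4. The iron exporter Slc40a1 and the iron sensor Tfr2 rose by 0.72 (SE 0.14) and 0.53 (SE 0.06). Hfe and Hjv, which act with Tfr2 in the control of hepcidin, fell by 0.37 (SE 0.09) and 0.63 (SE 0.15), calls lost without any 1 of 4 and of 2 arrays, and Ppox, a late enzyme of haem synthesis, fell by 0.70 (SE 0.09).

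**Figure D4:**
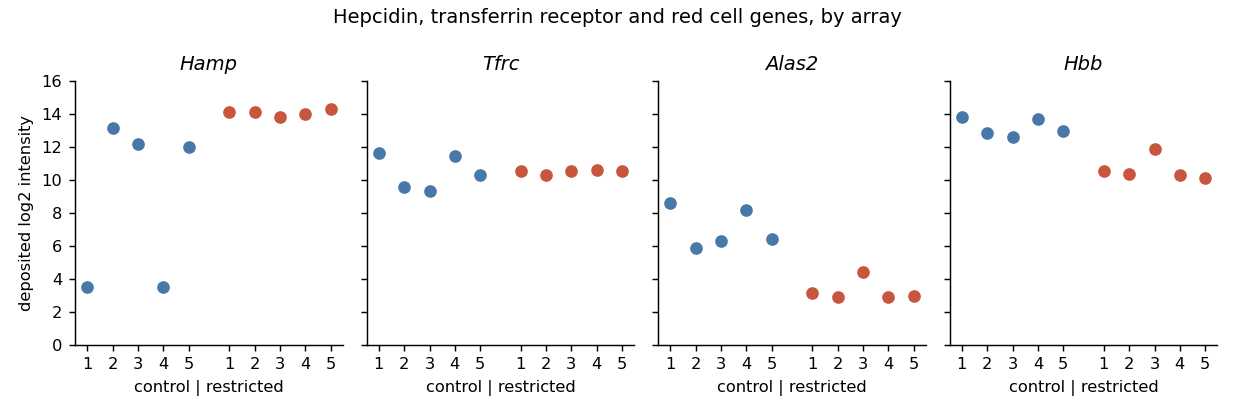
Deposited log2 intensity (vertical axis) of Hamp, Tfrc, Alas2 and Hbb on each array, controls 1 to 5 in blue and restricted rats 1 to 5 in red. Controls 1 and 4 have Hamp near 3.5 with the highest Tfrc, Alas2 and Hbb, and restricted 3 has the highest Alas2 and Hbb of its group.

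The 5 restricted rats differed among themselves in a pattern that ran through many genes. Over the 2393 called genes restricted 5 was the farthest from the control mean in 47.1% and restricted 1 the nearest in 37.6%, and both held at once in 21.4%, the most common of the 20 possible pairs. The next most common pair, restricted 2 nearest and restricted 5 farthest, made up 15.6%. Restricted rats 1 and 2 shared the first scan day and the others the second. A test of whether the effect of restriction differed between scan days, added after seeing the data, called 0 of 31042 probe sets with limma at an adjusted p of 0.05 (1382, or 4.45%, at an unadjusted p of 0.05). With 2 or 3 rats of each group per scan day the test could miss such differences, so nothing is concluded from it.

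Of the 22 called genes of amino acid breakdown restricted 1 was nearest to the controls in 16 and restricted 5 farthest in 13, both at once in 10. Got1 read 11.86, 12.85, 13.32, 13.98 and 14.52 in restricted rats 1 to 5 against 10.84 to 11.27 in controls, Asl 13.18, 13.49, 13.79, 14.09 and 14.48 against 11.76 to 12.03, and the coactivator Ppargc1a 5.94, 6.39, 6.82, 7.97 and 9.10 against 3.24 to 3.78. Restricted 1 was lowest and restricted 5 highest in all 3, a distance of more than 2.5 units for Got1 and more than 3 for Ppargc1a. Falls followed the same ranking in Elovl5 (12.51, 12.08, 11.72, 11.34 and 10.50 against 13.67 to 14.04) and in the sulfate carrier Slc13a4 (7.95, 7.52, 5.44, 4.52 and 2.62 against 9.40 to 10.03). Other genes did not rank the rats this way: Npas2, Poteml2 and Cpt1a were nearly equal in all 5, and the Kupffer list was highest in restricted 4.

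**Figure D5:**
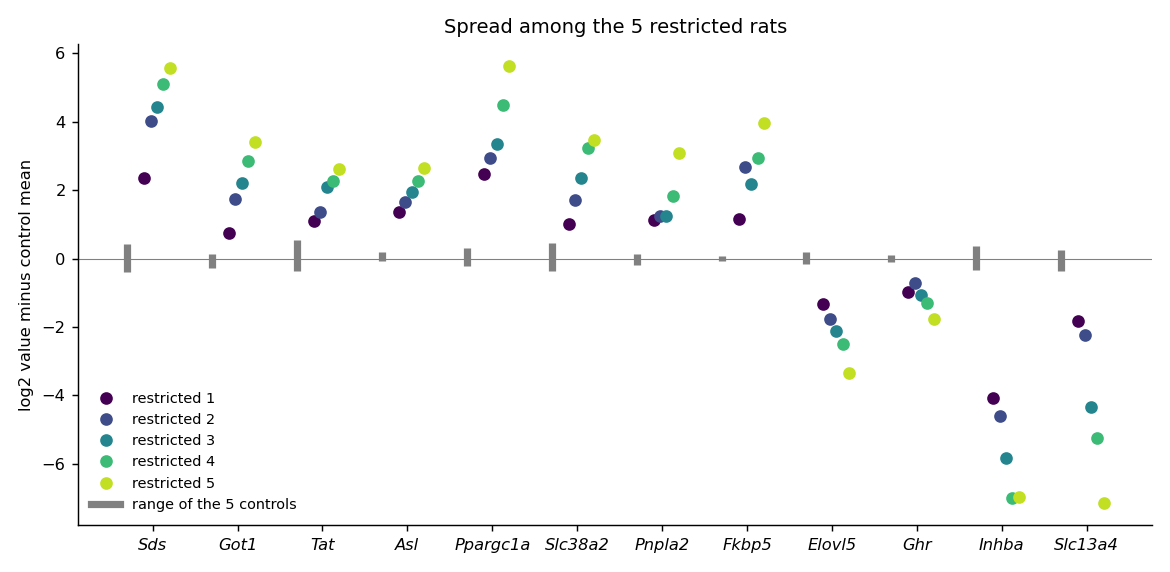
Log2 value minus the control mean (vertical axis) for 12 genes in each restricted rat (coloured points), with the range of the 5 controls as a grey bar. Restricted 1 is nearest to and restricted 5 farthest from the controls in Sds, Got1, Tat, Asl, Ppargc1a, Slc38a2, Pnpla2, Fkbp5, Elovl5 and Slc13a4.

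Last, the effect at day 10 was set against that of the 4-day restriction, whose liver arrays were 4 restricted and 4 control rats given corn oil alike. The 4-day portions were 18, 12, 9 and 6 g of pelleted feed, and the 2 sets of arrays were pre-processed apart, so length, severity, feed form and processing cannot be told apart. The effects differed in 203 probe sets (0.654%), 117 above and 86 below the day 4 effect. The counts ran from 54 and 50 without control 4 of day 4 to 190 without control 1 of day 4 (above) and 142 without restricted 1 of day 10 (below). With a replicate block they were 16 and 18. Only genes whose difference passed with any single array left out are therefore described here as differing between days. Some glucocorticoid-responsive and clock genes were among them. Tsc22d3 had a difference of -0.09 at day 4 and 2.12 at day 10, further up by 2.22 (SE 0.31, adjusted p = 0.00516), and Per1 differed by 0.01 and 2.90, further up by 2.89 (SE 0.45, adjusted p = 0.0097). Bmal1 was at -0.13 on day 4 and -2.27 on day 10, further down by 2.14 (SE 0.32, adjusted p = 0.00789).

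Several large day 10 changes were small, or of the opposite sign, at day 4. The zinc finger gene Zfp354a differed by -1.61 at day 4 and 4.20 at day 10 (adjusted p of the difference 0.00516), and Cyp17a1 by 1.21 and 5.67 (adjusted p of the difference 0.00655). Akr1c3 and Lox, which crosslinks collagen, had day 4 differences of -0.69 and -0.74 and day 10 differences of -4.26 and -4.49 (adjusted p of the difference 0.00425 and 0.004). The carrier Slc1a4 differed by 0.05 at day 4 and -2.51 at day 10 (adjusted p of the difference 0.000149). Of the 15 measured Kupffer cell and macrophage markers only Adgre1 passed the test of the difference between days (0.06 at day 4, -1.67 at day 10, adjusted p = 0.011). Clec4f was among those that did not (-0.72 and -1.12, adjusted p = 0.527). Scd differed by -6.79 at day 4 and -7.35 at day 10 (adjusted p of the difference 1.00).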

How the data were processed

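Liver RNA from 5 restricted and 5 control rats was measured on day 10, 1 array per rat. The deposited table holds log2 intensities summarised per probe set. The submitters' processing notes name R 2.4.1, affy 1.12.2, RMA and GCRMA 2.6.0; which method made these values is not stated, and the sets were pre-processed apart. Of 31099 probe sets 57 controls were left out, and 31042 were tested with limma 3.58.1 in R 4.3.3, without covariates, with Benjamini-Hochberg adjustment and a threshold of 0.05. Of the probe sets 20826 carried 1 symbol, 436 several and 9780 none; 20758 matched RefSeq names. A gene is shown by its probe set of highest mean on the 10 arrays (14217 genes, 4525 with several).

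Named genes were the 15 largest rises and falls without overlap, up to 5 called members per list by size (2 where none was called), the 5 largest moderated t each way and the 8 largest differences between days each way; other members were named where a role is described. The 64 lists held 1074 symbols, of which 959 were measured; the rest are not analysed here. Members and lists were chosen with earlier results of these data known. Alternatives were scan day and replicate number as blocks, each scan day alone, 2 normalizations, a minimum mean, another variance model and each array left out, plus, added later, omission of controls 1 and 4. The fits were tested on simulated data. Rats are separate animals, per the labels, so replicate spread is biological as well as technical.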

Additional observations from a re-analysis of the deposited data

Results flagged for a closer look

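In 25 of 408 groups of 5 arrays (6.13%) the highest or lowest rat stood far from the other 4, where chance gives about 1 in 20. Red cell genes were high in 1 restricted rat: Alas2 read 4.41 in restricted 3 against 2.91 to 3.12 in the other 4 and Hbb read 11.90 in restricted 3 against 10.11 to 10.55 in the other 4 rats of its group. Among clock and clock-linked genes, Bmal1 read 4.44 in restricted 4 against 5.28 to 5.39 in the other 4 and Dbp read 6.65 in control 3 against 3.80 to 4.51 in the other 4 rats of its group. Tef read 5.06 in control 1 against 6.27 to 6.76 in the other 4 and Npas2 read 2.31 in restricted 3 against 2.40 to 2.43 in the other 4 rats of its group. Control 3 was also high for a glucocorticoid-responsive gene and a urea cycle gene: Tsc22d3 read 9.51 in control 3 against 8.86 to 9.01 in the other 4 and Asl read 12.03 in control 3 against 11.76 to 11.82 in the other 4 rats of its group. On the protein export route and in tRNA loading, Hyou1 read 5.25 in restricted 1 against 6.45 to 6.68 in the other 4 and Srpra read 10.91 in restricted 1 against 10.40 to 10.54 in the other 4 rats of its group. Iars1 read 8.73 in restricted 1 against 8.29 to 8.39 in the other 4 rats of its group. Sec61a1 read 10.83 in restricted 5 against 11.14 to 11.21 in the other 4 and Surf4 read 11.02 in restricted 5 against 11.18 to 11.23 in the other 4 rats of its group. For hormones, immune genes and drug handling, Igfbp2 read 11.34 in restricted 2 against 12.32 to 12.68 in the other 4 and Stat5b read 6.83 in control 5 against 7.13 to 7.23 in the other 4 rats of its group. Cyp2c13 read 12.21 in restricted 5 against 13.19 to 13.56 in the other 4 and Nr0b2 read 8.12 in control 2 against 9.07 to 9.43 in the other 4 rats of its group. Nfe2l2 read 11.06 in restricted 1 against 10.21 to 10.41 in the other 4 and Tap1 read 2.88 in restricted 5 against 3.57 to 3.60 in the other 4 rats of its group. Sult2a6 read 10.69 in control 4 against 11.26 to 11.49 in the other 4 and Angptl6 read 8.15 in control 4 against 7.52 to 7.68 in the other 4 rats of its group. Hsd17b7 read 9.76 in restricted 5 against 9.11 to 9.20 in the other 4 rats of its group. In the last 3 the distance was small, at 0.1 or less: Alb read 16.15 in restricted 4 against 16.17 to 16.18 in the other 4 rats of its group. Psmb5 read 11.45 in control 3 against 11.54 to 11.56 in the other 4 rats of its group. Fst read 2.44 in control 5 against 2.46 to 2.47 in the other 4 rats of its group. 

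The effect of restriction differed between day 10 and day 4, by limma, in 21 genes named in the text. The day 10 effect was above the day 4 effect in Akr1b7 (4.09, adjusted p = 0.0281), Cyp17a1 (4.45, adjusted p = 0.00655), Fkbp5 (3.03, adjusted p = 0.0339), Per1 (2.89, adjusted p = 0.0097), Per2 (2.12, adjusted p = 0.0437), Pfkfb1 (1.36, adjusted p = 0.0446), Por (2.27, adjusted p = 0.0224), Stbd1 (1.07, adjusted p = 0.0216), Tsc22d3 (2.22, adjusted p = 0.00516), Usp2 (2.92, adjusted p = 0.0298) and Zfp354a (5.81, adjusted p = 0.00516). It was below it in Aars1 (-0.57, adjusted p = 0.0203), Adgre1 (-1.72, adjusted p = 0.011), Akr1c1 (-1.54, adjusted p = 0.034), Akr1c3 (-3.57, adjusted p = 0.00425), Bmal1 (-2.14, adjusted p = 0.00789), C1s (-0.62, adjusted p = 0.00789), Lox (-3.75, adjusted p = 0.004), Npas2 (-2.22, adjusted p = 0.0445), Slc1a4 (-2.56, adjusted p = 0.000149) and Syvn1 (-0.64, adjusted p = 0.0252). These values are day 10 minus day 4 on the log2 scale. The calls of Akr1b7, Akr1c1, Fkbp5, Npas2, Per2, Pfkfb1, Por, Stbd1, Syvn1 and Usp2 were lost when some single arrays were left out.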

How the results depend on the processing

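The counts of 1806 higher and 1665 lower probe sets became 1482 and 1417 with a replicate block, 1651 and 1558 with scan day as a block, 1448 to 1733 and 1378 to 1709 with single arrays left out. Same-numbered rats did not vary together (correlations of deviations -0.093, 0.052, 0.063, 0.0877 and 0.108 over the 5 numbers), so the numbers were not taken as pairs. Scan day 1 alone, with 3 and 2 rats, gave 287 higher and 280 lower, 87 and 115 of them by 2-fold or more, and scan day 2 alone, with 2 and 3 rats, gave 627 and 613, with 241 lower by 2-fold or more; these fits have fewer arrays. Without controls 1 and 4, chosen after seeing the data, 1098 were higher and 1131 lower. Counts of the effect at day 10 above and below that at day 4, 117 and 86, were 16 and 18 with a replicate block, 230 and 171 when the mean had to reach 5, which leaves fewer tested, and 54 to 190 and 50 to 142 with single arrays left out; where not said, the cause was not tested. Of the 265 called named genes 250 were called with scan day as a block, 220 with a replicate block, 256 after quantile normalization, 255 after centring arrays on their medians, 263 with a trended and robust variance and 192 without controls 1 and 4, and none of the alternatives turned a called sign. Of 128 list counts 5 moved by more than 1.5 times with scan day as a block, 27 with a replicate block, 91 and 72 on scan days 1 and 2 alone and 42 without controls 1 and 4. Of 1285 other probe sets of called genes 404 were called the same way, 4 the opposite way and 877 not at all. Array background limits the lowest values: a change that ends there is a lower bound.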

Other observations

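Other liver functions held further changes. Cyp27a1, which oxidises cholesterol on the way to bile acids, rose by 0.87 (SE 0.10), and Amacr, a racemase needed in their synthesis, fell by 0.73 (SE 0.14); of the 15 measured genes of bile acid synthesis 5 rose and 2 fell (median 0.07). Apoa5, which helps clear triglyceride from blood, rose by 0.75 (SE 0.11) and the secreted Angptl6 by 1.09 (SE 0.14). Slc16a10, a carrier of aromatic amino acids and thyroid hormone, rose by 1.78 (SE 0.33), and the sulfotransferase Sult2a6 by 2.00 (SE 0.17). Of 15 markers of stellate cells and fibroblasts 2 rose, 4 fell and 9 were not called; the rises numbered 0 or 1 without most single arrays, all but control 4. Pdgfrb and Vim fell by 0.81 (SE 0.14) and 0.76 (SE 0.15) beside Lox, and the collagen-binding Dcn rose by 1.62 (SE 0.44). The call of Dcn was lost without any 1 of 7 day 10 arrays, and those of the other genes of this paragraph held when any single one was left out.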
